A study of Mus musculus with 24 samples.

Results

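The genes described here encode the proteins of the cytosolic ribosome, chosen by symbol alone: every gene named Rpl or Rps with a number (a trailing a, l, x or y allowed), together with Rplp0, Rplp1, Rplp2 and Rpsa, without kinases of the Rps6k family and without entries marked as pseudogene by their symbol. The rule found 88 genes in each of the 2 count tables, of which 83 were annotated as protein-coding and 5 (Rpl6l, Rps12l1, Rps3a2, Rps3a3 and Rps4l) as pseudogenes. After a filter on low counts, 82 of the 83 were tested among 13405 protein-coding genes in the first experiment and all 83 among 14615 in the second. Rpl3l, the muscle form of Rpl3, was the member below the filter in the first experiment, with 0 to 6 counts in a library.

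The libraries came from E14 mouse embryonic stem cells (129m wt), an established line, kept on fibronectin-coated StemBond hydrogels that were either soft or stiff. All cells first spent 12 h in 2i + LIF, a medium with the MEK inhibitor PD03 (1 µM), the GSK3 inhibitor CHIRON (3 µM) and the cytokine LIF, which holds the cells in the naïve state. In 1 experiment PD03 was then withdrawn, leaving CHIRON + LIF, and in the other CHIRON was withdrawn, leaving PD03 + LIF. RNA was sequenced at 0, 2 and 12 h after withdrawal with 2 libraries for each substrate and time, so the comparisons ask how ribosomal protein mRNAs respond to each withdrawal and whether the stiffness of the substrate alters them.

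A ribosome is built from a small and a large subunit, each an RNA core carrying a set of proteins, most of them small and basic and present once per ribosome. The mRNAs of these proteins are among the most abundant in a growing cell, and most begin with a short run of pyrimidines directly at the cap, the 5′ terminal oligopyrimidine (TOP) tract, through which mTOR signalling controls their translation. The P-stalk proteins encoded by Rplp0, Rplp1 and Rplp2 recruit the GTPases that drive elongation. Those of Rplp1 and Rplp2 are acidic and present in more than a single copy. A few members have a paralogue that can take their place in some tissues, such as Rpl39l for Rpl39 and Rps27l for Rps27. Ribosomal protein genes have also left very many processed pseudogenes in the mouse genome, whose sequence is close to that of the parent mRNA.

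Runs of pyrimidines were looked for around the start sites of the members. Promoter entries in a RefSeq table (GRCm38.p6) were matched to 63 members, with 75 promoters in all, since some genes have several start sites. A run of at least 7 pyrimidines (C or T, on the strand of the gene) lay within 15 bases on either side of the start in 35 of the 75 (46.7%), against 18.6% of all 32851 promoters in the table. The windows of 30 bases printed here were picked to show the run in members that changed and in 1 that did not, together with 1 changed member in which the run was missing. Capitals mark the pyrimidine run. Of the genes shown, Rps24 also has a promoter entry without such a run in its window (chr14:24490738-24490767), which is not printed. The sites are, in this order, Rpl38 at chr11:114668565-114668594 (plus strand), Rpl39 at chrX:37085208-37085237 (minus strand), Rps9 at chr7:3704026-3704055 (plus strand), Rps24 at chr14:24490663-24490692 (plus strand), Rpl28 at chr7:4792950-4792979 (plus strand) and Rps23 at chr13:90923107-90923136 (plus strand).
Rpl38: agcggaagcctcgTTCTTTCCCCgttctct
Rpl39: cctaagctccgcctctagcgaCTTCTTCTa
Rps9: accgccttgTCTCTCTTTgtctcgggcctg
Rps24: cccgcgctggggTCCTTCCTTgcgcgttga
Rpl28: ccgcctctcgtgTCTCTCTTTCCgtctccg
Rps23: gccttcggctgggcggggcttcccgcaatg

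Over the full 300 bases of a promoter entry, CCGGAAG, letters found in the sites of ETS-family factors, was present on either strand in 27 of the 75 member promoters (36.0%) and in 8.86% of all promoters. The E-box CACGTG was found in 8 (10.7%, against 7.15% of all) and TATAAA in 7 (9.33%, against 13.6% of all). A match is only a match of letters, and a window without one says no more than that these letters are not in it.

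The libraries of PD03 removal held 16222196 to 26442153 counts, and those of CHIRON removal held 19393787 to 31111260, leaving out replicate 1 of stiff at 2 h in CHIRON removal, whose total was far lower, so that this group rested on 1 library. Embryonic stem cell markers were high in every library, with summed levels of 6130 to 7480 CPM (counts scaled to a common library total) over 8 genes in PD03 removal and 5020 to 5820 in CHIRON removal. Fibroblast feeder markers summed to 9.16 to 13.3 and 12.9 to 27.4 CPM, and primitive endoderm markers stayed at or below 17.5 CPM. Nothing in the labels says that the replicates were separate cultures, so the p-values measure the spread between these libraries, which may be technical. In bulk RNA, a lower value in every cell and a change in the mixture of cells cannot be told apart.

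At 12 h after PD03 removal the ribosomal protein mRNAs were lower on both substrates. On soft, 52 of the 82 members (63.4%) fell at an adjusted p under 0.05 in edgeR's quasi-likelihood test and 0 rose, where 15.3% of all genes tested fell and 14.1% rose. On stiff, 50 members (61%) fell and 0 rose, where 19.9% of all genes fell and 18.5% rose. The fall was shallow, with a median log2 fold change over the members of −0.19 on soft and −0.19 on stiff, against −0.0014 and −0.0015 over all genes. An offset that removes each library's trend on mRNA length moved these medians to −0.089 and −0.069. The fitted change was below 0 for 76 members on soft and 69 on stiff, and the median standard error (SE) of a member was 0.0542 and 0.0545. As a share of all protein-coding counts, the members went from 3.39 to 3.54% of a library at 0 h to 3.01 to 3.18% at 12 h.

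The fall was present in every 12 h library of this experiment. Relative to the 0 h mean of their own substrate, the median member stood at −0.24 and −0.14 log2 units in the 2 soft libraries at 12 h and at −0.14 and −0.23 in the 2 stiff ones. The 2 h libraries lay between −0.06 and 0.07, and the 0 h libraries between −0.03 and 0.03. The 12 h libraries did not overlap those of 0 h or 2 h in this median. The counts of calls were less settled than the direction: 30 members were called on soft without replicate 1 at 12 h and 33 without replicate 2 at 0 h, and 30 on stiff without replicate 2 at 12 h. The same offset left 32 members lower and 3 higher on soft and 34 lower and 11 higher on stiff. Its form on merged exon length left 46 lower and 1 higher on soft and 38 lower and 6 higher on stiff. The shares of all genes called in these fits are not given, so these counts cannot be set against them.

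**Figure D1:**
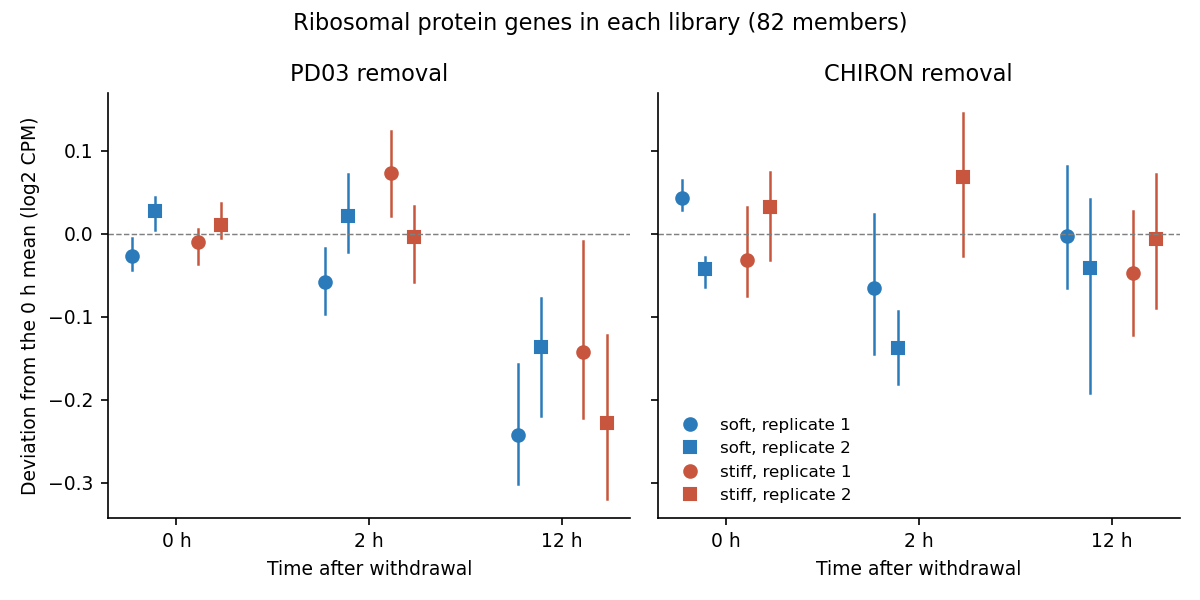
The y axis gives the deviation of each member (log2 CPM) from the mean of the 0 h libraries of its substrate, for 82 ribosomal protein genes, and the x axis the time after withdrawal; points are library medians, lines the interquartile range, blue is soft and red is stiff. After PD03 removal the 4 libraries at 12 h lie between −0.24 and −0.14, below all libraries at 0 and 2 h, whereas the 12 h libraries of CHIRON removal lie between −0.047 and −0.0031.

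The substrates gave much the same picture member by member. Of the 82 members, 43 fell on both, 9 on soft alone, 7 on stiff alone and 23 on neither. The fitted responses on soft and stiff, which share no library but share 1 normalisation, had a Pearson r of 0.84 and a Spearman rho of 0.846 over the 82 members. A call on 1 substrate alone is no sign of a difference between them, and the test of that difference is given after the members.

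**Figure D2:**
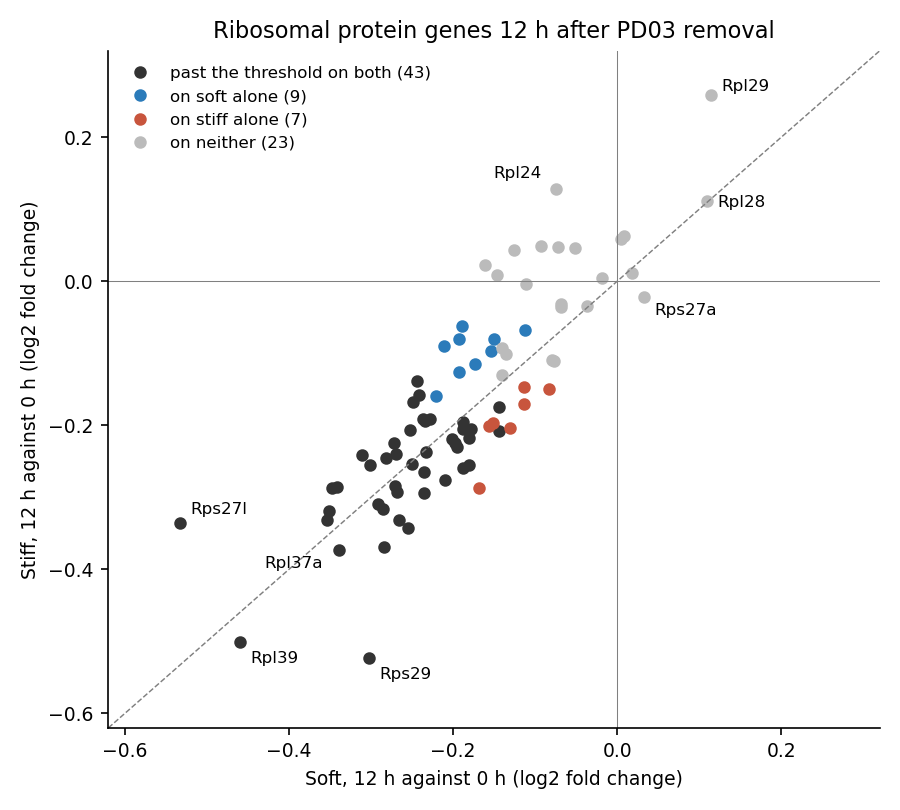
Each of the 82 points is a ribosomal protein gene, with its log2 fold change at 12 h against 0 h of PD03 removal on soft (x axis) and stiff (y axis); colours mark on which substrate it passed the threshold and the dashed line is equality. The 43 genes past it on both substrates form a cloud to the lower left, with Rpl39, Rps27l and Rps29 farthest out, while Rpl28 and Rpl29 sit above 0 on both axes without passing the threshold.

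The lowest member over both substrates was Rpl39 (ENSMUSG00000079641, chrX:37082520-37085402, minus strand), a very small X-linked protein that lines the exit tunnel of the large subunit. Its level in soft libraries was 185.0 and 212.2 CPM at 0 h, then 188.2 and 191.9 after 2 h and lastly 144.0 and 144.7 after 12 h. In stiff libraries it was 195.1 and 208.5 CPM at 0 h, then 206.5 and 178.2 after 2 h and lastly 152.3 and 132.8 after 12 h. All 4 libraries at 12 h were below every library at 0 and 2 h. The log2 fold change at 12 h was −0.46 (SE 0.0666, edgeR adjusted p = 4.75e-06) on soft and −0.50 (SE 0.0671, edgeR adjusted p = 8.23e-07) on stiff, so that Rpl39 fell by 27.3% and by 29.3%.

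Rps27l, a paralogue of the small subunit protein gene Rps27 and a known target of p53 (ENSMUSG00000036781, chr9:66946086-66949516, plus strand), came next. Its level on soft was 135.9 and 128.8 CPM at 0 h, then 124.9 and 132.7 after 2 h and lastly 89.04 and 93.92 after 12 h. On stiff it was 132.2 and 131.2 CPM at 0 h, then 149.7 and 129.7 after 2 h and lastly 109.2 and 99.37 after 12 h. The groups did not overlap on either substrate, and the 12 h libraries on soft were also below those on stiff. The log2 fold change was −0.53 (SE 0.0625, edgeR adjusted p = 1.43e-07) on soft and −0.34 (SE 0.0623, edgeR adjusted p = 8.94e-05) on stiff.

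Rps29, a zinc-binding protein of the head of the small subunit (ENSMUSG00000034892, chr12:69157722-69159186, minus strand), showed the opposite order of the substrates. On soft it went from 176.3 and 181.1 CPM at 0 h to 136.8 and 152.9 at 12 h, after 179.3 and 198.3 at 2 h. On stiff it went from 194.2 and 194.0 CPM at 0 h to 142.4 and 127.3 at 12 h, after 197.1 and 173.7 at 2 h. The 12 h values were the lowest of either substrate. The log2 fold change was −0.30 (SE 0.0629, edgeR adjusted p = 0.000514) on soft and −0.52 (SE 0.0635, edgeR adjusted p = 1.57e-07) on stiff; the soft value became −0.08 and was no longer called with the offset on mRNA length.

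Rpl37a and Rps23 completed the lowest 5. Rpl37a, a zinc-finger protein of the large subunit, was at 219.7 and 241.4 CPM on soft at 0 h and at 179.3 and 185 at 12 h, and on stiff at 221.2 and 232.2 CPM at 0 h and 187.4 and 162.6 at 12 h. Rps23, which sits at the decoding centre, was at 237.2 and 258.1 CPM on soft at 0 h and at 190.5 and 196.9 at 12 h, and on stiff at 245.1 and 251.1 CPM at 0 h and 207.8 and 186.4 at 12 h. For both genes every 12 h library was below every 0 h library. The log2 fold changes were −0.34 and −0.37 for Rpl37a and −0.35 and −0.33 for Rps23 on soft and stiff, with edgeR adjusted p of at most 8.24e-05. These 5 members kept their call on both substrates whichever library was left out.

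Among the members that fell on both substrates, those with the smallest mean change were Rps9, Rps2, Rpl27a, Rpsa and Rpl8. Rpl8, a large subunit protein close to the peptidyl transferase centre, had a log2 fold change of −0.14 (edgeR adjusted p = 0.0208) on soft and −0.17 (0.00414) on stiff, and DESeq2 did not call it on soft. Rps9 changed by −0.18 and −0.21, Rps2 by −0.19 and −0.20 and Rpl27a by −0.24 and −0.14. With a single library left out, Rps9, Rps2, Rpsa and Rpl8 lost their call on soft, and Rps2, Rpl27a and Rpl8 on stiff, in at least 1 fit.

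Rpsa, the laminin receptor homologue of the small subunit, was an abundant example. It was at 1006 and 1090 CPM on soft at 0 h, then 1050 and 1119 after 2 h and lastly 926.2 and 969.8 after 12 h. On stiff it was at 1061 and 1088 CPM at 0 h, then 1098 and 1055 after 2 h and lastly 935.1 and 926.3 after 12 h. All 12 h libraries were again the lowest. The log2 fold change was −0.14 (SE 0.043, edgeR adjusted p = 0.0117) on soft and −0.21 (SE 0.0431, edgeR adjusted p = 0.000336) on stiff, and the call on soft was lost without replicate 2 at 0 h or replicate 1 at 12 h.

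Of the P-stalk genes, Rplp0 and Rplp1 fell on both substrates and Rplp2 on neither. Rplp0, often used as a reference gene in quantitative PCR, was at 1282 and 1356 CPM on soft at 0 h, then 1267 and 1396 after 2 h and lastly 1137 and 1179 after 12 h, and on stiff at 1284 and 1362 at 0 h, then 1399 and 1330 after 2 h and lastly 1196 and 1098 after 12 h. The 12 h libraries lay below all others, and the log2 fold change was −0.19 (edgeR adjusted p = 0.00308) on soft and −0.21 (0.000981) on stiff. Rplp1 had a log2 fold change of −0.23 (edgeR adjusted p = 0.000924) and −0.19 (0.00375), but was at −0.02 on soft and 0.03 on stiff with the offset on merged exon length. Rplp2 had −0.14 (edgeR adjusted p = 0.0992) and −0.09 (0.269).

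**Figure D3:**
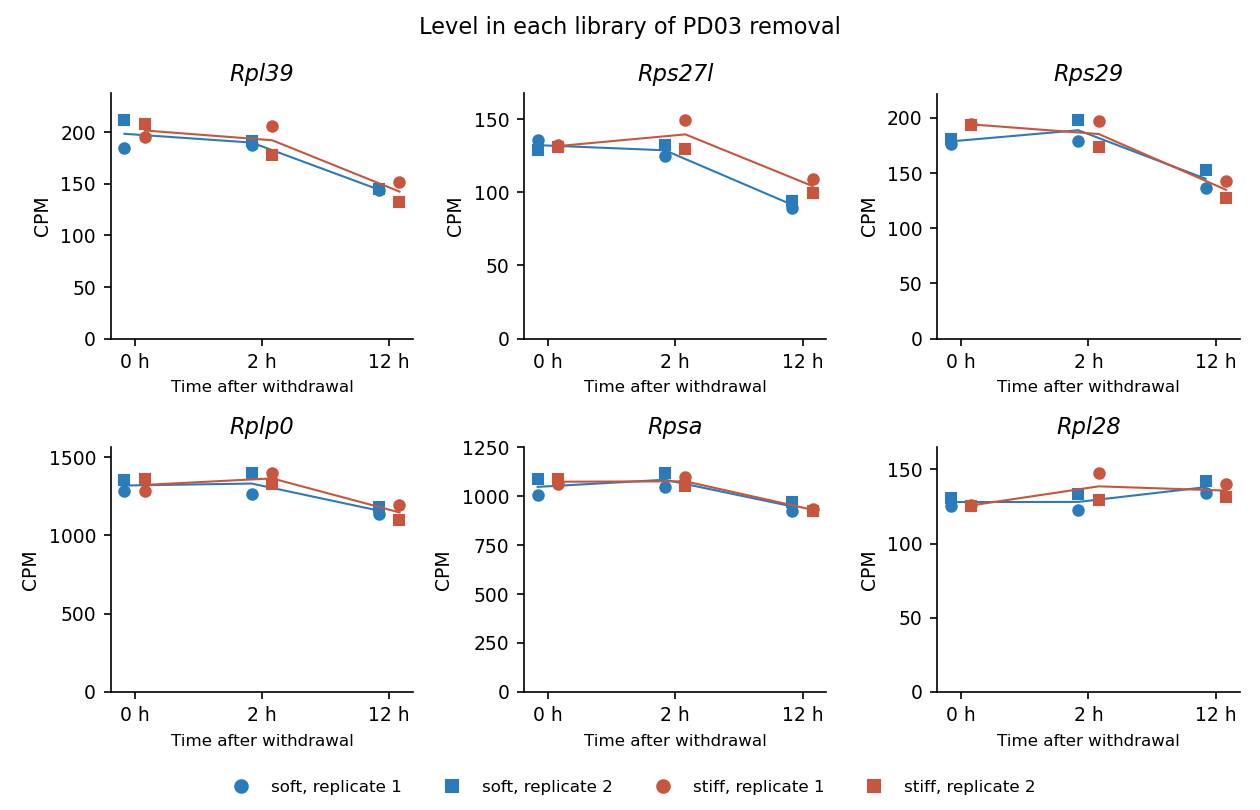
CPM (y axis, from 0) of 6 ribosomal protein genes in each library of PD03 removal against time after withdrawal; circles are replicate 1, squares replicate 2, blue is soft, red is stiff and lines join the means. In Rpl39, Rps27l, Rps29, Rplp0 and Rpsa the 4 libraries at 12 h lie below all those at 0 h, while in Rpl28 they lie above them.

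At 12 h of PD03 removal, 15.3% of all genes tested fell on soft and 19.9% on stiff. By subunit, 21 of 31 small subunit members fell on soft and 22 on stiff, with a median log2 fold change of −0.20 and −0.21. Of 43 large subunit members, 27 fell on soft and 21 on stiff, with medians of −0.18 and −0.13. These counts leave out the 3 P-stalk genes and the 5 paralogues, which also belong to a subunit and are given on their own. Of the 4 X-linked members, Rpl36a, Rpl39 and Rps4x fell on both substrates and Rpl10 on neither. The 23 members called on neither substrate belonged to both subunits, among them Rpl3, Rpl10, Rpl10a, Rpl11, Rps13 and Rps19.

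Members with a fitted value above 0 were few and none was called. Rpl28, a large subunit protein whose start site carries the pyrimidine run printed above, was at 125.1 and 130.9 CPM on soft at 0 h and at 134.0 and 142.1 at 12 h, and on stiff at 126.1 and 125.4 at 0 h and 140.1 and 131.4 at 12 h. The 12 h libraries were the higher on both substrates, with a log2 fold change of 0.11 (edgeR adjusted p = 0.167) and 0.11 (0.141). Rpl29 had 0.11 (edgeR adjusted p = 0.502) and 0.26 (0.0897) at levels of only 11.93 to 14.91 CPM. With the offset on either length Rpl29 passed the threshold on stiff, at 0.37 with merged exons and 0.39 with mRNA length, and so it did when summed with its pseudogenes, at 0.23.

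The pyrimidine run did not separate the members that fell from those that did not. It was present in 18 of 33 members with a promoter entry among those that fell on both substrates, in 8 of 14 among those that fell on 1, and in 8 of 15 among those that fell on neither. CCGGAAG was present in 15, 4 and 7 of them. Among the members, the response had little relation to the length of the mRNA, which ranged from 345 to 5179 bases (Pearson r 0.0594 on soft and 0.0225 on stiff over 82 members), although the offset on length moved the members' median as given above. There was a weak relation to the GC content (0.286 and 0.255). These are descriptions over genes that share the same libraries.

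Of 5 paralogues tested, 2 fell on soft and 5 on stiff, where 15.3% and 19.9% of all genes fell. Rpl39l had a log2 fold change of −0.28 (edgeR adjusted p = 0.00165) on soft and −0.37 (6.09e-05) on stiff, beside −0.46 and −0.50 for Rpl39. Rpl22l1, which can stand in for Rpl22, had −0.17 (edgeR adjusted p = 0.113) and −0.29 (0.00601), beside −0.24 and −0.16 for Rpl22, which was called on both. Rpl7l1 had −0.11 (edgeR adjusted p = 0.0512) and −0.15 (0.00901), beside −0.24 and −0.29 for Rpl7, called on both. 

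Rps27 had −0.22 (edgeR adjusted p = 0.0191) on soft and −0.16 (0.0822) on stiff, against the larger changes of Rps27l above, and was at 0.03 on soft with the offset on mRNA length. Rpl10l, an intronless copy of Rpl10 known from the testis, had −0.08 (edgeR adjusted p = 0.259) and −0.15 (0.0299), and Rpl10 itself had −0.07 (0.285) and 0.05 (0.486). Rpl3 had −0.04 (edgeR adjusted p = 0.561) and −0.03 (0.567). Rps4x, the X-linked form of Rps4, had −0.18 (edgeR adjusted p = 0.00511) and −0.26 (0.000104). Whether reads of such close copies were split between them by the counting is not stated, so the values of paralogue pairs are uncertain.

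At 2 h after PD03 removal no member had passed the threshold. edgeR called 0 of 82 on soft, where it called 1.96% of all genes, and 0 on stiff, where it called 2.73%. At an unadjusted p under 0.05 there were 4 members on soft and 8 on stiff, against 11.8% and 13.2% of all genes. DESeq2 also called 0 members on each. The medians were −0.01 and 0.03. The smallest adjusted p was 0.272 for Rpl36a on soft (log2 fold change −0.13) and 0.117 for Rps16 on stiff (0.18). The median SE was 0.0544 and 0.0539, close to that at 12 h.

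Soft and stiff were compared directly at each time of PD03 removal. At 0 h edgeR called 0 of 82 members and 0.0298% of all genes, at 2 h 0 members and 0.134% of genes, and at 12 h 0 members and 0.776% of genes. At an unadjusted p under 0.05 there were 0, 1 and 1 members, against 7.24%, 8.59% and 9.67% of all genes. DESeq2 called 0 members at each time. The member with the smallest p was Rpl23a at 0 h (soft minus stiff 0.13, edgeR adjusted p = 0.691) and Rps27l at 12 h (−0.19, 0.224). The interval of 2 SE on either side for Rps27l at 12 h ran from −0.32 to −0.06, and the median over all members was −0.01.

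The difference in response, soft minus stiff, was likewise without a call. edgeR called 0 members at 2 h, where it called 0.00746% of all genes, and 0 at 12 h, where it called 0.0% of all genes. There were 3 and 4 members at an unadjusted p under 0.05, against 4.54% and 6.71% of all genes. DESeq2 called 0 members at each time. Rpl23a had the smallest p at 2 h (−0.24, edgeR adjusted p = 0.991) and Rps29 at 12 h (0.22, edgeR adjusted p = 0.654). For Rps29 the interval of 2 SE was 0.04 to 0.40, which leaves out 0 although the value did not pass after adjustment over all genes. The median SE of this difference at 12 h was 0.0769.

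Members differed widely in level. Per kilobase of the principal mRNA, the median over the 82 tested members of PD03 removal was 256 CPM per kb. The highest were Rplp1 with 2150 and Rpl8 with 2095 CPM per kb, and the lowest Rps15a with 51.2, Rpl24 with 33.1 and Rpl29 with 18.8. In CHIRON removal the highest were Rps26 with 3097, Rpl13 with 2829 and Rpl36 with 2372 CPM per kb. The lowest there were Rpl39l with 20.1, Rpl24 with 3.87 and Rpl3l with 0.55. The same order did not hold in both experiments: the log2 levels per kb had a Pearson r of 0.464 over 82 members, and 18 members were over 4 times higher in CHIRON removal while 2 (Rpl24 and Rpl39l) were over 4 times lower there.

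Counts on resembling pseudogenes also differed between the experiments. The annotation holds 1545 pseudogenes whose sequence matches a member mRNA at 85% identity or more over at least 150 bases. In PD03 removal they took 1.76 to 1.82 times as many counts as the members, and 58 of 82 members had fewer counts than their own pseudogenes. In CHIRON removal the ratio was 0.334 to 0.409, and 6 of 83 members had fewer.

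Rpl29 had the largest gap in level between the experiments. Summed over the libraries used, it had 2468 counts of its own and 63699 on 64 resembling pseudogenes in PD03 removal, and 97385 of its own and 337088 on 73 in CHIRON removal, where its level per kb was 32.3 times higher. Rpl24 had 26.7 and 37.3 times more counts on pseudogenes than on itself. Levels of members can therefore not be compared between the experiments, and a level within 1 experiment says only what the counting assigned to that gene. The 5 members annotated as pseudogenes were far from silent, with 2940 to 15733 counts in each library of PD03 removal and 524 to 9471 in CHIRON removal, and how much of that is transcript of the parent genes was not tested.

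With each member summed with its resembling pseudogenes, 66 of 82 were called on soft and 65 on stiff, all lower except 1 on stiff. This alternative was added after the data were seen, and the share of all genes called in it is not given. As a share of protein-coding counts the pseudogenes went from 6.13 to 6.44% at 0 h to 5.28 to 5.69% at 12 h, the same direction as the members. All protein-coding counts together went from 76.7 to 77.5% of a library at 0 h to 73.1 to 74.5% at 12 h, and the part of this shift in the members' values was not tested.

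Markers moved over the same 12 h of PD03 removal. The 8 embryonic stem cell markers summed to 7350 to 7440 CPM at 0 h and 6130 to 6520 at 12 h, with 5 of 8 lower on each substrate. The 5 mesoderm markers went from 15.6 to 19.1 CPM to 46.8 to 57.1, with 2 of the 3 tested higher on each substrate. Feeder markers were at 10.5 to 13.3 CPM at 0 h and 11.5 to 12.9 at 12 h, primitive endoderm markers at 3.95 to 4.88 and 4.49 to 5.38, and no marker was at 0 in all libraries. Among these, the primitive endoderm marker Gata6 rose on soft (1.56, edgeR adjusted p = 0.00636) and the feeder marker Thy1 on stiff (1.66, 0.0109). The part of these changes in the values of the ribosomal protein genes was not tested.

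Other genes of protein synthesis were counted in the same fit, in which 15.3% of all genes fell on soft and 19.9% on stiff. Of 22 genes known to carry a TOP tract that are not members, 10 fell and 1 rose on soft (median −0.12) and 9 fell and 3 rose on stiff (−0.08). They included the elongation factor genes Eef1a1 (−0.19 on soft, edgeR adjusted p = 8.71e-05, and −0.25 on stiff, 1.13e-06) and Eef2 (−0.20, 3.18e-05, and −0.19, 4.29e-05). Eif3e, a subunit gene of the initiation factor eIF3, had −0.33 (edgeR adjusted p = 1.36e-06) and −0.26 (3.03e-05). Pabpc1, the gene of the poly(A)-binding protein, went the other way, at 0.14 (edgeR adjusted p = 0.0177) and 0.14 (0.0155).

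Of 4 genes of ribosomal proteins whose symbols lie outside the rule, some of which are also on the TOP list, Rack1 fell on both substrates (−0.17, edgeR adjusted p = 0.00415, and −0.21, 0.00045) and Fau, which encodes eS30 fused to a ubiquitin-like protein, on soft (−0.18, 0.00889; −0.11, 0.0948 on stiff). Of 76 mitochondrial ribosomal protein genes, 9 fell and 2 rose on soft and 10 fell and 7 rose on stiff, with medians of −0.07 and −0.08. The share of this list that fell was below that of all genes on both substrates (15.3% and 19.9%).

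Of 45 ribosome biogenesis genes, read against the shares of all genes given above (14.1% rose on soft and 18.5% on stiff), 11 rose and 2 fell on soft (median 0.05) and 13 rose and 3 fell on stiff (0.05). Ncl, the nucleolar protein gene, had the highest value, at 0.38 (edgeR adjusted p = 2.17e-05) and 0.50 (2.41e-07). Of 19 upstream regulators, 4 rose and 1 fell on soft and 6 rose and 3 fell on stiff. Among them Myc, a transcription factor gene downstream of ERK signalling, had 1.40 (edgeR adjusted p = 8.56e-08) and 1.67 (2.75e-10), and Larp1, whose protein binds TOP mRNAs, had 0.21 (0.00104) and 0.26 (6.21e-05). These lists were not refitted with the length offsets.

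**Figure D4:**
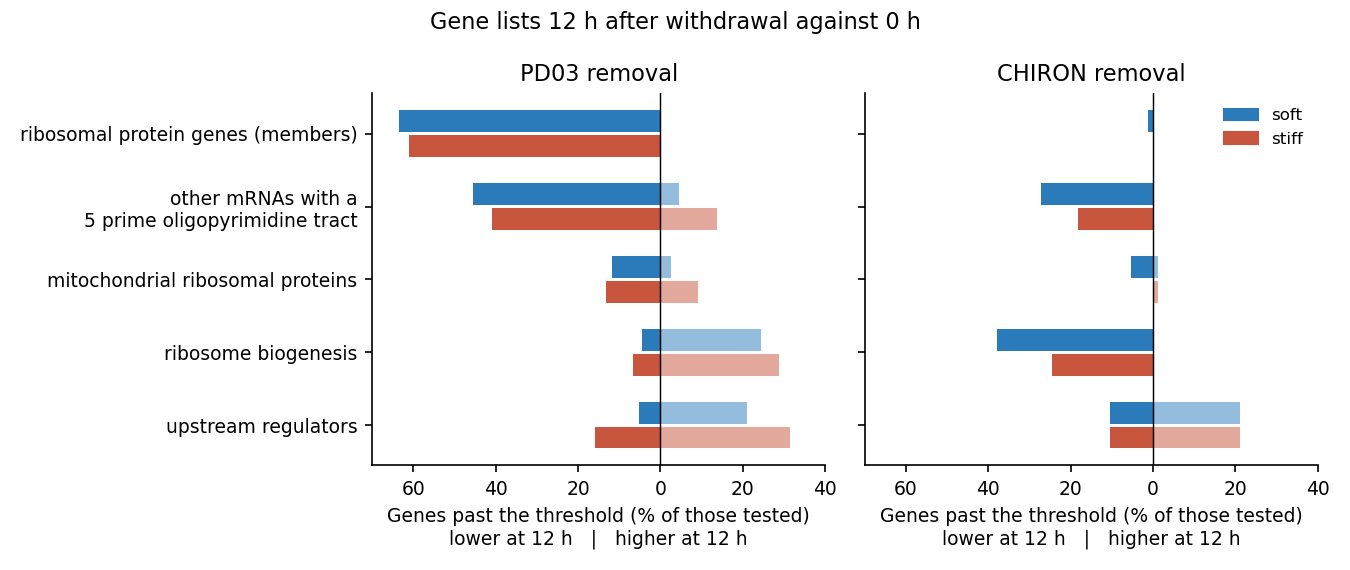
Share of the tested genes of each list (%) past the threshold at 12 h against 0 h, lower to the left and higher to the right, for soft (blue) and stiff (red) in PD03 removal (left) and CHIRON removal (right). The members reach 63.4% and 61% lower after PD03 removal, while of the 45 ribosome biogenesis genes 11 and 13 are higher there, and 17 and 11 are lower after CHIRON removal.

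CHIRON removal gave fewer calls among the members. At 12 h on soft edgeR called 1 of 83 members, Rpl29, as lower and 0 as higher, where 8.63% of all genes fell and 9.18% rose. On stiff it called 0 in either direction, where 8.33% of all genes fell and 8.46% rose. At an unadjusted p under 0.05 there were 7 members on soft and 8 on stiff, against 29.9% and 29% of all genes. DESeq2 called 1 on each, and its call on soft was not Rpl29. The medians were −0.03 and −0.04 with a median SE of 0.0907 and 0.0909, so the spread between libraries was larger than in PD03 removal. With single libraries left out, the median reached 0.049 on soft and 0.018 on stiff. The length offsets moved the stiff median to −0.082 (mRNA) and −0.086 (merged exons), where that of PD03 removal was −0.069 with mRNA length. The members held 5.32 to 5.7% of protein-coding counts at 0 h and 5.24 to 5.62% at 12 h. Over the 83 members the responses on soft and stiff had a Pearson r of 0.702.

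The members that fell farthest after PD03 removal did not pass the threshold after CHIRON removal. Rpl39 was at 289.4 and 244.7 CPM on soft at 0 h and at 297.2 and 260.3 at 12 h, and on stiff at 237.9 and 268.7 at 0 h and 247.6 and 265.5 at 12 h. The groups overlapped on both substrates, and the log2 fold change was 0.06 (SE 0.104, edgeR adjusted p = 0.742) and 0.02 (SE 0.105, edgeR adjusted p = 0.93). Rps27l was at 119.5 and 113.5 CPM on soft at 0 h and at 127.9 and 121.4 at 12 h, with 0.10 (edgeR adjusted p = 0.577) on soft and −0.04 (0.827) on stiff. Rps23 had 0.07 (edgeR adjusted p = 0.647) and −0.02 (0.916), and Rpl37a 0.05 (0.747) and 0.07 (0.654).

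Rpl29, a small basic protein of the large subunit, was the exception on soft. It was at 531.7 and 536.3 CPM at 0 h, then 305.3 and 492 after 2 h and lastly 395.3 and 312 after 12 h. On stiff it was at 583.2 and 453.9 at 0 h, 404.2 in the single library at 2 h, and 510.1 and 364 at 12 h. On soft the 12 h libraries were below those of 0 h, while on stiff the groups overlapped. The log2 fold change was −0.59 (SE 0.18, edgeR adjusted p = 0.0293) on soft and −0.25 (0.398) on stiff. Neither DESeq2 nor edgeR with a block by tube number called it on soft. Summed with its pseudogenes, Rpl29 had −0.27 (edgeR adjusted p = 0.0511) on soft, where the sums of Rps15a and Rpl10l were called as higher instead, at 0.25 (0.031) and 0.24 (0.0455). The number of calls on soft went from 0 to 6 as single libraries were left out, with 0 without replicate 1 or 2 at 0 h or replicate 2 at 12 h and 6 without replicate 1 at 12 h.

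At 2 h of CHIRON removal 77 of 83 members had a fitted change below 0 on soft (median −0.10), and 56 had one above 0 on stiff (median 0.06), where the time point rested on 1 library. On soft edgeR called 0 members, where it called 0.226% of all genes. At an unadjusted p under 0.05 there were 6 members on soft, against 9.09% of all genes, and DESeq2 called 0. Between soft and stiff edgeR called 0 members at 0 and 12 h, where 0.0% of all genes were called at each time. There were 3 and 0 members at an unadjusted p under 0.05, against 3.48% and 3.22% of all genes. At 2 h, where stiff had 1 library, the median over the members was −0.13 (soft minus stiff). The member with the smallest p was Rps12 at 2 h (−0.34, edgeR adjusted p = 0.819) and Rps20 at 12 h (0.19, 0.999). For the difference in response edgeR called 0 members at 12 h, again with 0.0% of all genes. There were 0 members at an unadjusted p under 0.05, against 2.84% of all genes. At 2 h the median of this difference over the members was −0.17. Rpl26 had the smallest p at 2 h (−0.43, edgeR adjusted p = 1). DESeq2 called 0 members in all of these comparisons of the substrates.

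The same lists were counted after CHIRON removal, where 8.63% of all genes fell on soft and 8.33% on stiff. Of the 45 ribosome biogenesis genes, 17 fell on soft and 11 on stiff and 0 rose (medians −0.21 and −0.17), among them Rrn3, a factor of RNA polymerase I initiation, at −0.56 (edgeR adjusted p = 3.45e-05) and −0.58 (2.15e-05). Of the other 22 TOP genes, 6 fell on soft and 4 on stiff and 0 rose (medians −0.18 and −0.17), with Eef2 at −0.27 (edgeR adjusted p = 0.0221) and −0.31 (0.0113). Eef1a1 was at −0.0025 (edgeR adjusted p = 0.988) and −0.04 (0.777). Myc had −2.30 (edgeR adjusted p = 1.58e-09) on soft and −1.53 (1.67e-07) on stiff, and its relative Mycn had 0.79 (4.77e-06) and 0.75 (8.03e-06). Mesoderm markers went from 19.9 to 22.6 CPM at 0 h to 9.66 to 13.2 at 12 h, and embryonic stem cell markers from 5220 to 5550 to 5390 to 5820. Of the 8 stem cell markers, 3 rose and 3 fell on soft and 5 rose and 3 fell on stiff, and the feeder marker Pdgfrb fell on both substrates (−0.49, edgeR adjusted p = 0.0346, and −0.73, 0.00304). The part of these changes in the members' values was not tested.

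Whether the members responded differently to the 2 withdrawals was tested in 1 joint limma fit over all libraries, a comparison added after the data were seen. On soft, the 12 h response was lower in PD03 removal than in CHIRON removal for 21 of 83 members and higher for 0, where 10.4% of all genes were lower and 10.8% higher. On stiff it was lower for 15 and higher for 1, Rpl10a, where 10.6% of all genes were lower and 11.9% higher. The difference was below 0 for 68 and 65 of the 83 members, with medians of −0.18 and −0.16 against 0.01 and 0.02 over all genes. edgeR on the same libraries called 18 and 15 members lower and 0 higher, so without a length offset Rpl10a was not called there (adjusted p = 0.0764). The difference over the members moved with the length offsets, and the cause was not tested. With the offset on mRNA length, edgeR called 7 lower and 3 higher on soft and 4 lower and 6 higher on stiff. The medians were then −0.044 and −0.0092. With merged exons it called 8 lower and 3 higher on soft, then 6 lower and 7 higher on stiff. Of all genes in the fit on mRNA length, 10.1% were lower and 1783 of 14759 higher on soft and 10.5% and 13.8% on stiff, and with merged exons 10.1% and 11.6%, then 10.6% and 13.3%. With either offset the members' share was below that of all genes in both directions on both substrates. Rpl39, Rps15a and Rps24 were called lower on both substrates with either offset, and Rpl28 higher. With either offset, Rpl29 was also higher on soft, and Rpl4, Rpl10a, Rpl23a and Rpl24 on stiff. Rpl39 had a difference of −0.53 (SE 0.132, limma adjusted p = 0.00422) on soft and −0.52 (SE 0.135, limma adjusted p = 0.00528) on stiff.

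Among members that passed the threshold, Rps27l had the largest difference on soft, −0.64 (SE 0.126, limma adjusted p = 0.000472), and −0.30 (SE 0.127, limma adjusted p = 0.0978) on stiff. Rps24, a small subunit protein gene mutated in Diamond-Blackfan anaemia, had −0.39 (SE 0.0715, limma adjusted p = 0.000183) and −0.31 (SE 0.0724, limma adjusted p = 0.00207). The withdrawn inhibitor and the experiment in which it was withdrawn cannot be told apart.

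**Figure D5:**
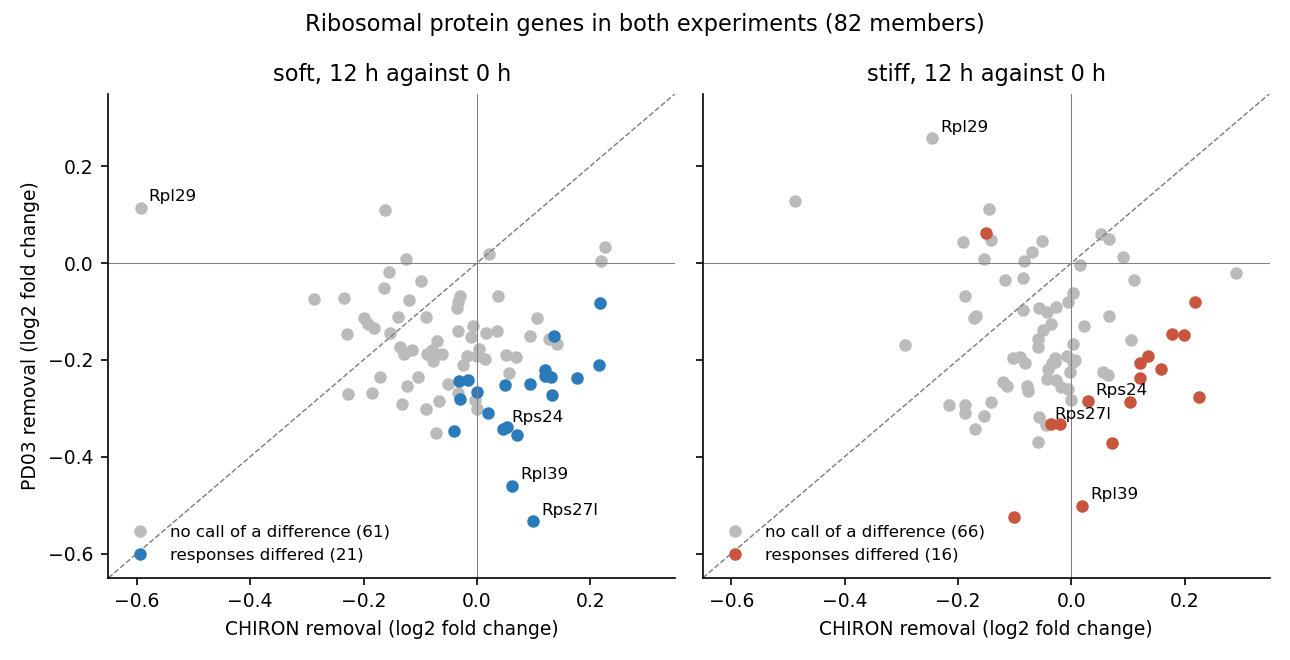
Log2 fold change at 12 h against 0 h of 82 ribosomal protein genes in CHIRON removal (x axis) and PD03 removal (y axis), on soft (left) and stiff (right); coloured points passed the limma test of the difference between experiments and the dashed line is equality. Most points lie below the line, with Rps27l lowest on soft and Rps29 on stiff, and Rpl29 is at the upper left on soft and the highest on stiff.

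Across the 23 libraries, with each experiment centred on its own mean, most members followed their common mean, with a median Pearson r of 0.765 and 62 of 82 above 0.5, each member being part of that mean. Rpl24 and Rpl29 did not follow it (−0.04 and −0.134). Of 13160 genes, 7 of the 10 most like the mean were members. The 5 most alike outside the list were Atp5f1 (r 0.92), Cox4i1 (0.916) and Uqcr10 (0.894), which encode parts of ATP synthase, cytochrome c oxidase and the cytochrome bc1 complex, then Scand1 (0.891) and Eif2s1 (0.889), the gene of an eIF2 subunit. These correlations describe libraries that share their groups and carry no test.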

How the data were processed

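The values are counts of reads per gene. The deposited counts were made by the authors with Trim Galore, TopHat2 2.1.0 on GRCm38 (mm10) and featureCounts 1.5.0, from RNA depleted of ribosomal RNA. Whether strand was used, and how reads mapping to several places were treated, is not given in the sources used here. Biotypes and coordinates came from GENCODE M21 (GRCm38), and promoters from RefSeq (GRCm38.p6). 12 columns that belong to no sample analysed here were not used, and 122 gene symbols that occur more than once in 1 table were kept apart by gene ID. Replicate 1 of stiff at 2 h in CHIRON removal was left out.

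Protein-coding genes with enough counts (edgeR's filterByExpr, minimum 10 in a library and 15 in total) were scaled by TMM and fitted with edgeR 4.0.16 (quasi-likelihood, R 4.3.3), 6 groups in each experiment, and called at a Benjamini-Hochberg adjusted p under 0.05 over all genes tested. SE is the absolute log2 fold change over the square root of F. The group with 1 library was assumed to vary like the others. DESeq2 1.42.0 and limma 3.58.1 (voom with quality weights) were alternatives, with limma also giving the joint fit of both experiments. The scripts were tested on simulated data. CPM are relative to the TMM-scaled total of protein-coding counts, the log2 deviations of libraries use a pseudocount of 0.5, and figures were drawn with Python 3.11.15 and matplotlib 3.10.9.

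The members and the gene lists were chosen with earlier results of these data known. Named members were the 5 lowest and 5 highest by mean 12 h change among those called on both substrates, the member with the smallest p in each comparison of substrates, the 3 highest and 3 lowest levels per kilobase, the P-stalk genes with Rpsa, and the paralogue pairs; a few genes that this rule names are not reported here. Rpl4, Rpl28, Rpl36a, Rps16, Rps24 and Rpl10a, and the genes picked for the printed windows, were chosen after their values were seen. Other scalings, filters, blocks, length and GC offsets, sums with pseudogenes and fits without each library were tried as alternatives.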

Additional observations from a re-analysis of the deposited data

Results flagged for a closer look

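The response of some ribosomal protein genes at 12 h differed between the experiments by the joint limma test of the difference itself. On soft it was lower in PD03 removal than in CHIRON removal for 21 of 83 members and higher for 0, where 10.4% of all genes were lower and 10.8% higher. On stiff it was lower for 15 and higher for 1 (Rpl10a), where 10.6% of all genes were lower and 11.9% higher. With an offset on mRNA length, edgeR called 7 lower and 3 higher on soft and 4 lower and 6 higher on stiff, with medians of −0.044 and −0.0092, where 10.1% of all genes were lower and 1783 of 14759 higher on soft and 10.5% and 13.8% on stiff. The members' shares were below those of all genes. Members called on both substrates by limma, without a length offset and with the PD03 minus CHIRON difference in log2 units on soft and then on stiff, were Rpl39 (−0.53 and −0.52), Rpl37a (−0.41 and −0.45), Rps23 (−0.43 and −0.32), Rps15a (−0.41 and −0.33) and Rpl10l (−0.30 on soft; on stiff −0.35). On soft the members named in PD03 removal also included Rps27l (−0.64), Rplp1 (−0.37), Rps27 (−0.36), Rpl22 (−0.23) and Rpl27a (−0.22). On stiff they also included Rps29 (−0.41), Rpl22l1 (−0.39) and Rpl7l1 (−0.32). edgeR on the same libraries did not call Rps27 (adjusted p = 0.0575), Rpl22 (0.0718) and Rpl27a (0.0687) on soft, nor Rpl10a (0.0764) on stiff. With either length offset, edgeR called lower, of those named here, only Rpl39, Rps15a, Rps23 and Rps27l on soft and Rpl39, Rps15a and Rpl7l1 on stiff, and it called Rpl10a higher on stiff. The experiment cannot be told apart from the inhibitor withdrawn. Groups of 2 libraries are too small for a test of single libraries that stand apart.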

How the results depend on the processing

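The direction of the members' median at 12 h of PD03 removal was the same in all alternatives run. DESeq2 called 43 members on soft and 47 on stiff. Without single libraries the calls ranged from 30 to 56 on soft and from 30 to 52 on stiff, with 26 and 29 members called in every such fit. For the alternatives within an experiment in this section, the shares of all genes called are not given. Their counts of members can therefore not be set against all genes. With the offset on mRNA length the median was −0.089 on soft and −0.069 on stiff, and with merged exons −0.12 on stiff. Reversed single values were Rps27 on soft with mRNA length (0.025) and Rplp1 on stiff with merged exons (0.026). The cause was not tested.

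For PD03 removal at 2 h on stiff, 1 member was called with no filter, 1 with merged exons, 2 with mRNA length, 1 when summed with pseudogenes, and 0 to 1 without single libraries. For CHIRON removal, no filter called 1 member at 2 h on soft and 1 between the substrates at 2 h. At 12 h on soft the calls were 2 with TMM without the members, 2 with no filter, 0 with all genes, 0 with the block by tube number, 0 with the 12th library, 3 with each length offset, 2 with pseudogenes (both higher, neither of them Rpl29) and 0 to 6 without single libraries. At 12 h on stiff they were 1 with DESeq2, 3 with no filter, 1 with mRNA length and 0 to 2 without single libraries. Medians there moved to −0.086 with merged exons and −0.082 with mRNA length.

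With the 12th library of CHIRON removal, the median at 2 h was −0.83 for the response on stiff and 0.76 for soft against stiff. For the difference in response it was 0.73. Without that library, the median of this difference was −0.17 in the main fit and −0.10 with the offset on mRNA length. Without single libraries the median ranged from −0.071 to 0.049 at 12 h on soft, from −0.061 to 0.018 at 12 h on stiff, from −0.019 to 0.091 for soft against stiff at 0 h and from 0.015 to 0.077 at 12 h. Members whose response differed between the experiments numbered 11 (merged exons) and 10 (mRNA length) on soft, and 10 (mRNA length) on stiff. Of the 10 highest members per kilobase, 7 remained by CPM and 8 per kilobase of merged exons in PD03 removal, and 5 and 7 in CHIRON removal.

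Deviations of same-numbered replicates had a mean correlation of −0.0025 in PD03 removal (lowest −0.053, highest 0.11). In CHIRON removal it was −0.02 (lowest −0.11, highest 0.071). With 2 libraries a group, such correlations cannot show whether the numbers pair the libraries. A replicate block gave 54 and 50 calls at 12 h of PD03 removal.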
